A study of Homo sapiens with 4 samples.

Results

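The genes that make ribosomes were followed in HepG2 cells, an established line from a human liver tumour, treated with APRIL, a cytokine related to tumour necrosis factor. The set held 44 genes named for their work in RNA polymerase I transcription, ribosomal RNA processing and subunit assembly, and it was chosen by gene symbol. Of these, 38 were read here by 76 probe sets that carry exactly 1 gene symbol, out of 19775 genes read in this way. The other 6 (NOP56, DKC1, BOP1, GNL3, PPAN and EBNA1BP2) had no such probe set and were not analysed here. Total RNA was the starting material for the Affymetrix U133 Plus 2.0 arrays. RNA was taken after 2, 6 or 12 h with APRIL at 200 ng/ml and, from untreated cells, at 0 h, on 1 array each (4 arrays). The cells had been kept without serum for 24 h according to the design text, or overnight according to the protocol. There was no replicate and no untreated array at the later times, so no test was possible and an effect of time alone cannot be told apart from one of APRIL.

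Ribosome production begins in the nucleolus, where RNA polymerase I copies the ribosomal DNA repeats into 1 long precursor. Small nucleolar ribonucleoproteins guide the methylation and pseudouridylation of that precursor while the small-subunit processome and the large-subunit assembly factors cut and fold it with ribosomal proteins. In mammalian cells the pathway is tied to growth signals, among them serum, mTOR and the transcription factor MYC, which binds the E-box CACGTG.

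The deposited values are centred on each probe set's median over the 4 arrays and were taken as log2, since no base is stated, so they show differences between arrays and no expression level. Whether the 0 h cells express hepatocyte markers could therefore not be read. Of 10 such markers, 1 was past 2-fold at 6 h and 1 at 12 h, and of 5 markers of immune, fibroblast and endothelial cells none was at any time. A gene's ratio is the median over its probe sets of a later array minus the 0 h array. The robust SD of that ratio over all genes, used as a yardstick, came to 0.16, 0.20 and 0.24 for 2, 6 and 12 h. It includes any true response, and it does not measure culture variation. Bacterial RNAs added at hybridisation lay at a median of 0.01, 0.06 and -0.35 at these times, against 0.02, 0.05 and 0.01 for all genes, so directions at 12 h are relative to the median gene.

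Promoter windows are given for some of the members that stood out at 6 h or 12 h. RefSeq windows (GRCh38.p14), running from 250 bases before to 50 bases after the gene's start, were at hand for 32 of the 38 genes. Those without one were RNA45SN5, RRP1B, POLR1E, NOLC1, NOP58 and RRS1. The 6 windows printed belong to genes with a ratio past 1.5-fold (0.58 on the log2 scale) in some comparison described here. Each is written 5′ to 3′ on the gene's own strand with the E-box in capitals, and where a gene has several windows the one that holds it is given. The first 4 hold an E-box and the last 2 do not.
NOP2, chr12:6568242-6568541, minus strand: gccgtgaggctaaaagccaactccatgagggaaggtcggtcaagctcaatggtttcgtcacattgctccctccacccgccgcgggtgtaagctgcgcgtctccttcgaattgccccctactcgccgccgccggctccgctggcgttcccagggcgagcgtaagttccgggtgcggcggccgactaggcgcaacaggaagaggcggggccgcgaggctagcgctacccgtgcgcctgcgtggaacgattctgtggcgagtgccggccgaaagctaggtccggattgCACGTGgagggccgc
UTP4, chr16:69132399-69132698, plus strand: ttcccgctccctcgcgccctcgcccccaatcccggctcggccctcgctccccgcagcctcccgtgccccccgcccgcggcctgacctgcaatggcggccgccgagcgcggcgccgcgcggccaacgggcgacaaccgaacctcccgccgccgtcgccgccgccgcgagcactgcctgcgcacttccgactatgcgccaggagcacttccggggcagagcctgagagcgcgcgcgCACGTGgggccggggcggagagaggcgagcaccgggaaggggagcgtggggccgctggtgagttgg
DDX21, chr10:68956397-68956696, plus strand: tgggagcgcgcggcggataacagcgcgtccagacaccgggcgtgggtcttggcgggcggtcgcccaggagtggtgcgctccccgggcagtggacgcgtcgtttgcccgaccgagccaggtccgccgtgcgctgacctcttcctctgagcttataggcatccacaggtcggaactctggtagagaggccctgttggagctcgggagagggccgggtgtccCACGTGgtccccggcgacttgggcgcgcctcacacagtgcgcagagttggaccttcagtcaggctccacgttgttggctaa
UTP20, chr12:101279855-101280154, plus strand: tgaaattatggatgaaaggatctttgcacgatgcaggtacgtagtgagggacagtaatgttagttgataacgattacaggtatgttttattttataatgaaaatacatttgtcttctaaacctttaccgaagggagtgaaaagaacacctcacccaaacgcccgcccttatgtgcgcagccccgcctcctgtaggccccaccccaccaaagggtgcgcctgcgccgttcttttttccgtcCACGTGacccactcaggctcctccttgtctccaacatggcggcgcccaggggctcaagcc
UTP15, chr5:73565493-73565792, plus strand: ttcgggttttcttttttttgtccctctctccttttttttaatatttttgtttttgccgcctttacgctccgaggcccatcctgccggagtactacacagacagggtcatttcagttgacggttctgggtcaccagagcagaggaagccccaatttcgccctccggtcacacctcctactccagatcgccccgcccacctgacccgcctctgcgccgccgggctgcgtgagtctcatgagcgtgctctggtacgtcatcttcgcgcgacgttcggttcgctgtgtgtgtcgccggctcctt
NIP7, chr16:69339522-69339821, plus strand: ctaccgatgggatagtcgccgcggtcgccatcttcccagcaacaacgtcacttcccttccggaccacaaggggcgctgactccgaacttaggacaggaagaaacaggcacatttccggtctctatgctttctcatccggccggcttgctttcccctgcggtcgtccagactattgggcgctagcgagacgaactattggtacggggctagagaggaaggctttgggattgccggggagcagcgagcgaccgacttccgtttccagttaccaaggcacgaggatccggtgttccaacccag

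RNA45SN5, the symbol for the ribosomal RNA precursor, was the member that differed most from 0 h. RNA45SN5 was 2.86-fold lower at 6 h and 2.78-fold lower at 12 h than at 0 h, and it was the only one of the 38 past 2-fold at either time. In RNA from a whole culture, fewer cells with a transcript and less of it per cell cannot be told apart. Among all genes 0.283% were lower and 0.101% higher by 2-fold or more at 6 h, and 0.986% and 0.946% at 12 h. Its centred log2 value, as the median of 2 probe sets, was 0.95, 0.53, -0.57 and -0.53 in the order 0, 2, 6 and 12 h. Centring on the median over the arrays puts as many arrays above 0 as below it, so these signs show no grouping. The 6 and 12 h arrays lay close together for both probe sets. For the probe set that can match several transcripts, 2 h (0.40) lay between 0 h (1.07) and the later arrays (-0.43 and -0.40). For the other, 2 h (0.65) lay near 0 h (0.825) and far from the later arrays (-0.70 and -0.65). The log2 ratio of RNA45SN5 was -0.42 at 2 h. At 6 h it was -1.51 (SD 0.010 over 2 probe sets), and 12 h gave -1.475 (SD 0.0020). At 6 h only 7 of the 19775 genes were lower than it. The 2 probe sets differed at 2 h, at -0.67 for the one that can match several transcripts and -0.18 for the other. The ratio between 12 h and 6 h was 0.04, within the yardstick. The ribosomal DNA repeats are near-identical copies, so the probe sets cannot tell which copy was read. The precursor also holds the sequences of the mature ribosomal RNAs. Whether the 2 probe sets read the precursor or mature RNA was not checked.

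The array's own control probe sets for mature ribosomal RNA were lower too, but not all of them. The 3 probe sets for 18S rRNA were all below 0 at every time, with medians of -0.28, -0.80 and -0.95 for 2, 6 and 12 h. The middle probe set stood furthest from 0 h, at -1.84 at 6 h and -1.91 at 12 h. For 28S rRNA the 5′ probe set was at -0.97 at 6 h and -0.68 at 12 h, and the middle one at -0.97 and -0.48. The 3′ probe set went the other way, at 0.27 at 6 h and 0.08 at 12 h. Over the 6 probe sets 5 were lower than 0 h at 6 h and at 12 h, and all 6 at 2 h. Ribosomal RNA carries no long poly(A) tail. How far such probe sets, or those of RNA45SN5, track its amount with this labelling was not tested. As a sign of RNA quality, the log2 ratio of the 3′ to the 5′ control probe set for ACTB differed from that at 0 h by -0.24 at 2 h, 0.38 at 6 h and 0.03 at 12 h, and that for GAPDH by -0.03, 0.05 and -0.05. Their part in the ribosomal RNA values was not tested.

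**Figure D1:**
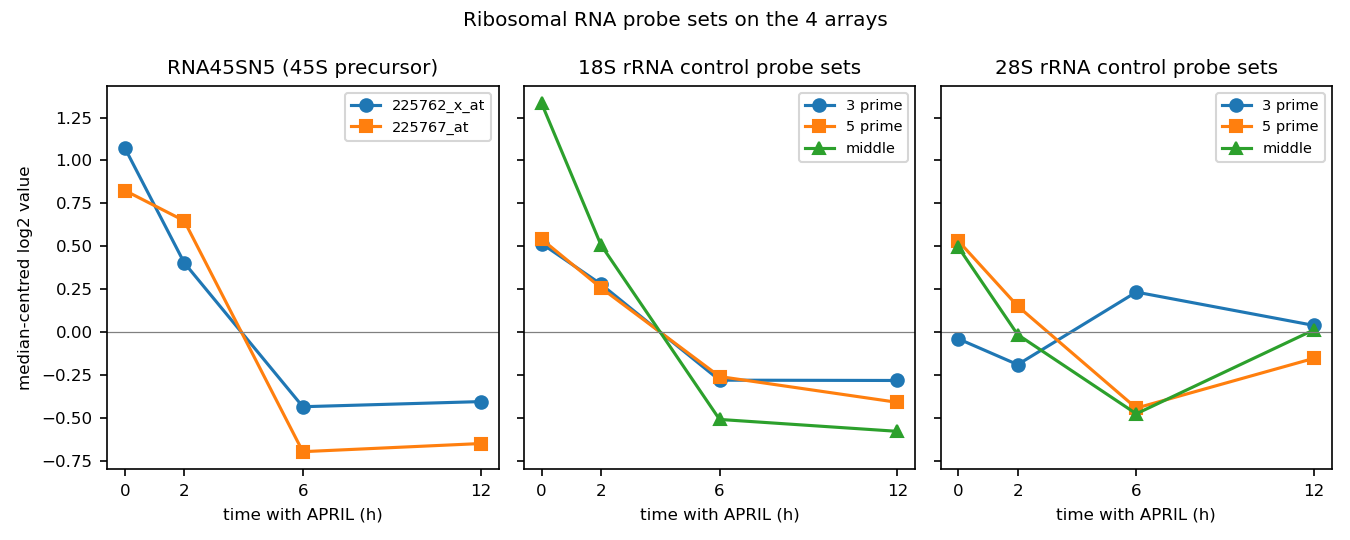
Median-centred log2 value (vertical axis) against hours with APRIL (horizontal axis) for the 2 probe sets of RNA45SN5 and the control probe sets of 18S and 28S rRNA, 1 point per array. All but the 3′ probe set of 28S rRNA lie higher at 0 h than at 6 and 12 h.

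The 37 protein-coding members lay far closer to 0 h. They were slightly high at 2 h, low at 6 h and spread in both directions at 12 h. At 2 h the median log2 ratio was 0.06, with 26 above 0 and none past 1.5-fold, beside 0.308% of all genes higher and 0.344% lower by that much. At 6 h it was -0.11, with 26 below 0, from -0.71 for UTP15 to 0.25 for WDR12. At 12 h it was 0.09, with 21 above 0, from -0.54 for UTP20 to 0.77 for NOP2. With RNA45SN5, 26 of 38 were above 0 at 2 h, where 53.5% of all genes were. Likewise 27 of 38 were below 0 at 6 h, where 39.7% of all genes were, and 21 of 38 above 0 at 12 h, where 51.7% were. The 12 h share was thus close to that of all genes. At 6 h, 19 of the 37 lay within 1 robust SD of the median of all genes, a smaller share than the 66.5% of all genes that did. Relative to the bacterial RNAs 36 of 38 were above 0 at 12 h, as were 90.5% of all genes.

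The 6 h array stood out for these genes in both directions of time. For 22 of 38 it held the lowest of the 4 values, where it did so for 18.9% of all genes. Against the 2 h array, 31 of 38 were lower at 6 h, beside 42.8% of all genes, with a median of -0.19. Against the 6 h array, 32 of 38 were higher at 12 h, beside 45.1% of all genes, with a median of 0.22. Both comparisons rest on the same 6 h array, and with 1 culture per time its own deviation cannot be told apart from a change with time. Set against 2 h in its place, the 12 h array had 23 of 38 members above 0, beside 52.5% of all genes, and the median was 0.02. The ACTB 3′ to 5′ ratio given above was highest on the same 6 h array and lowest on the 2 h array, and its part here was not tested.

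**Figure D2:**
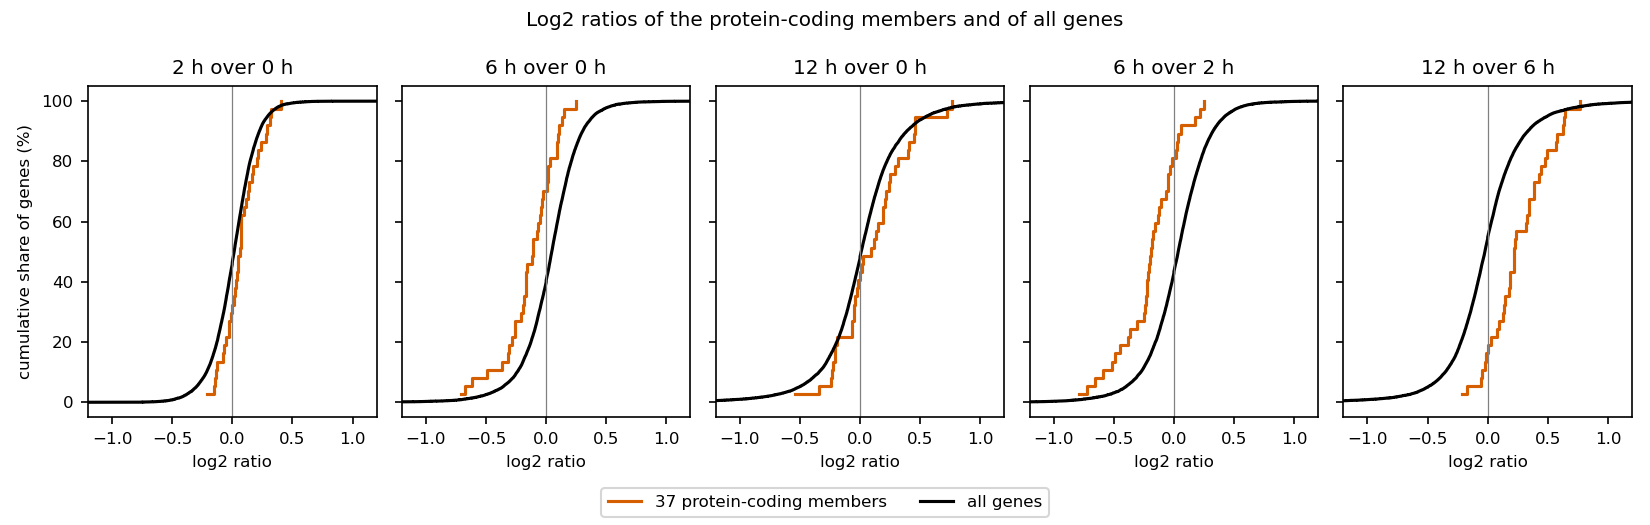
Cumulative share of genes (vertical axis, %) against log2 ratio (horizontal axis) for the 37 protein-coding members and for all 19775 genes, in 5 comparisons of arrays. The members' curve lies left of that of all genes at 6 h over 0 h and 6 h over 2 h, and right of it over most of its range at 12 h over 6 h.

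RNA polymerase I and its initiation factors did not share 1 direction. Over 8 genes the median was -0.03 at 2 h, -0.10 at 6 h and -0.06 at 12 h, and none was past 1.5-fold. POLR1A, the largest subunit, was at -0.12 at 6 h and -0.07 at 12 h, with probe sets on both sides of 0. POLR1B, the second-largest, was at -0.26 and -0.23. POLR1F was at -0.29 and -0.34, though 1 of its 2 probe sets lay at 0.15 at 6 h and -0.01 at 12 h. These 3 lay below 0 h at both times, none by more than 1.5 times the yardstick. POLR1C, which RNA polymerase III also contains, was at -0.16 at 6 h and 0.31 at 12 h, with both probe sets of 1 sign each time. POLR1E was at 0.09 and -0.21. RRN3, the factor that brings the polymerase to the promoter and links it to growth signals, was at 0.10 at 6 h and 0.41 at 12 h on 1 probe set. UBTF, which binds the ribosomal DNA, was at 0.28 at 2 h (SD 0.21 over 5 probe sets) and then at -0.07 and -0.05. TAF1D, a subunit of the promoter selectivity factor, was at 0.25 at 12 h. The ratios of these genes were thus a fraction of that of RNA45SN5 at 6 h.

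Among the small nucleolar ribonucleoprotein genes GAR1, NOLC1 and NOP58 were low at 6 h and near 0 at 12 h, while NHP2 and FBL were not. Over 5 genes the medians were 0.04, -0.21 and 0.02 at the 3 times. GAR1, of the pseudouridylating particles, was at -0.32 at 6 h and 0.02 at 12 h, and its partner NHP2 at -0.03 and -0.24. NOLC1, a chaperone of these particles, was at -0.26 (SD 0.14 over 3 probe sets) and 0.09. NOP58, a core protein of the methylating particles, was at -0.21 and -0.03. Their methyltransferase, FBL, was at 0.11 and 0.19.

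The small-subunit processome held the lowest protein-coding members at 6 and 12 h and some of the highest. Of 12 genes 11 were above 0 at 2 h, beside 53.5% of all genes, and 8 below 0 at 6 h, beside 39.7%. All 12 were higher at 12 h than at 6 h, beside 45.1% of all genes, with a median step of 0.30. UTP15, of the subcomplex that acts early in ribosomal RNA transcription and processing, had centred values of 0.04, 0.12, -0.67 and -0.03 at 0, 2, 6 and 12 h. The 6 h array alone was low. Its log2 ratio was -0.71 at 6 h (SD 0.26 over 2 probe sets) and -0.07 at 12 h. UTP20, a large scaffold protein read by 1 probe set, had 0.27, 0.32, -0.40 and -0.27. It was low at both 6 h (log2 ratio -0.67) and 12 h (-0.54). HEATR1, of the same early subcomplex as UTP15, was at -0.37 at 6 h, where its 5 probe sets were all below 0 (from -0.56 to -0.09), and at -0.19 at 12 h.

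UTP4, a further protein of that subcomplex, had a different profile from UTP15. Its centred values were -0.22, 0.07, -0.07 and 0.51 at 0, 2, 6 and 12 h, with 12 h the highest. The log2 ratio at 12 h was 0.72 (SD 0.16 over 2 probe sets), or 1.65-fold. DDX21, an RNA helicase that works in ribosomal RNA transcription and processing, had -0.10, 0.10, -0.41 and 0.36. Its ratio was -0.31 at 6 h (SD 0.0017 over 2 probe sets) and 0.46 at 12 h (SD 0.038), and 0.77 at 12 h over 6 h, the widest step upward among the members. RRP9, a protein of the U3 particle, had the highest member ratio at 2 h, 0.41, and was at -0.04 at 6 h and 0.45 at 12 h. NOP14 was at 0.46 at 12 h, each of these 2 on 1 probe set. NAT10, which acetylates 18S rRNA, was at -0.11 at 6 h and 0.02 at 12 h. WDR43, WDR3, WDR75 and DDX10 stayed between -0.17 and 0.22 at 6 and 12 h.

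The large-subunit group was split in the same way. NOP2, which methylates 28S rRNA, had centred values of -0.19, 0.06, -0.06 and 0.58 at 0, 2, 6 and 12 h on 1 probe set. Its log2 ratio of 0.77 at 12 h, or 1.70-fold, was the highest of all members. NIP7, an assembly factor, had 0.15, 0.12, -0.47 and -0.09. Its ratio was -0.62 at 6 h, with its 2 probe sets at -0.94 and -0.29, and -0.24 at 12 h. RRS1, which helps to place the smallest ribosomal RNA in the large subunit, had -0.06, 0.10, -0.56 and 0.06 on 1 probe set, so only the 6 h array was low. Its ratio was -0.49 at 6 h and 0.62 at 12 h over 6 h. WDR12 and PES1, which with BOP1 form a complex for maturing the large-subunit RNAs, were at 0.25 and -0.06 at 6 h and at 0.29 and -0.05 at 12 h. NOP16 was at 0.31 at 2 h and 0.19 at 12 h, with probe sets of both signs (SD 0.37 over 4 at 12 h). BRIX1 was at -0.16 and -0.21 at 6 and 12 h, and RRP1B at -0.07 and 0.15.

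Of the abundant nucleolar proteins, NPM1 lay close to 0 h at all 3 times and NCL at 12 h, while LYAR lay further off at 2 and 12 h. NPM1, a histone and ribosome chaperone, lay between -0.07 and -0.03 at the 3 times. NCL, nucleolin, was at -0.14, -0.19 and 0.00. MYBBP1A was at -0.19 at 6 h and 0.24 at 12 h, with both probe sets of 1 sign. LYAR was at 0.32 at 2 h, -0.17 at 6 h and 0.40 at 12 h (SD 0.17 over 2 probe sets).

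Past 1.5-fold there were 4 members lower at 6 h (RNA45SN5, UTP15, UTP20 and NIP7), where 1.64% of all genes were, and none higher, beside 1.15%. At 12 h there were 2 higher (NOP2 and UTP4), beside 4.46% of all genes, and 1 lower (RNA45SN5), beside 3.70%. The 12 h share of higher members, 5.26%, was near that background.

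**Figure D3:**
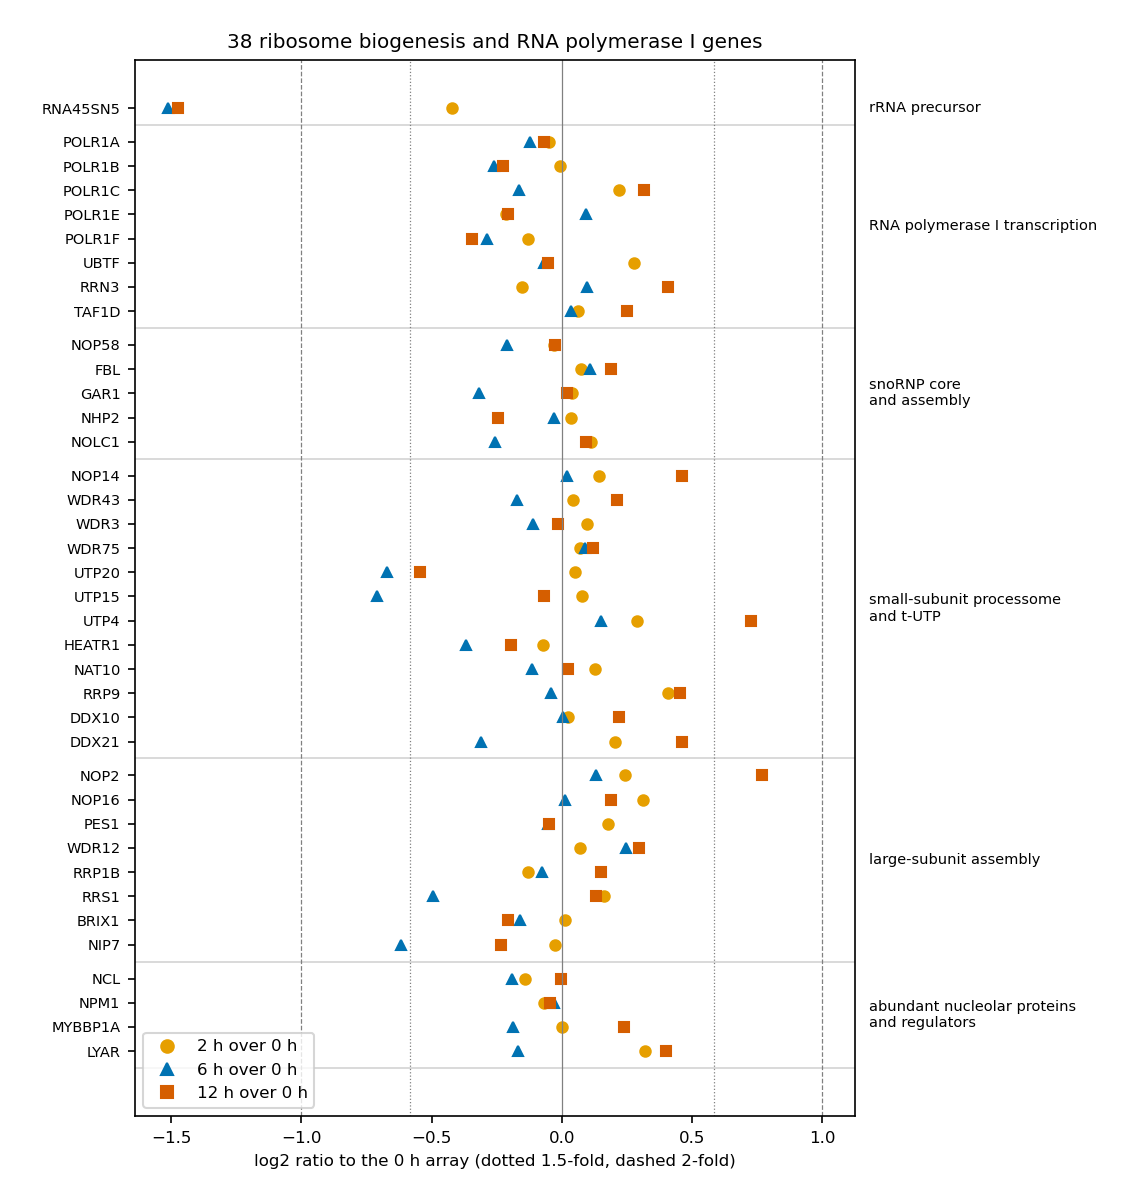
Log2 ratio to the 0 h array (horizontal axis) of each of the 38 genes (rows, grouped by role) at 2, 6 and 12 h, 1 point per time. RNA45SN5 lies past 2-fold at 6 and 12 h, UTP15, UTP20 and NIP7 past 1.5-fold at 6 h, and NOP2 and UTP4 past 1.5-fold at 12 h.

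How well a gene was read differed between members. Of the 38, 15 had 1 probe set and 23 had 2 or more. Of these 23, all probe sets had the same sign for 11 genes at 2 h, 14 at 6 h and 10 at 12 h. The median SD between probe sets of a gene was 0.08, 0.15 and 0.17 at these times. At 6 and 12 h the probe sets of RNA45SN5 and of DDX21 lay close together, while those of POLR1A, POLR1B and POLR1F did not.

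**Figure D4:**
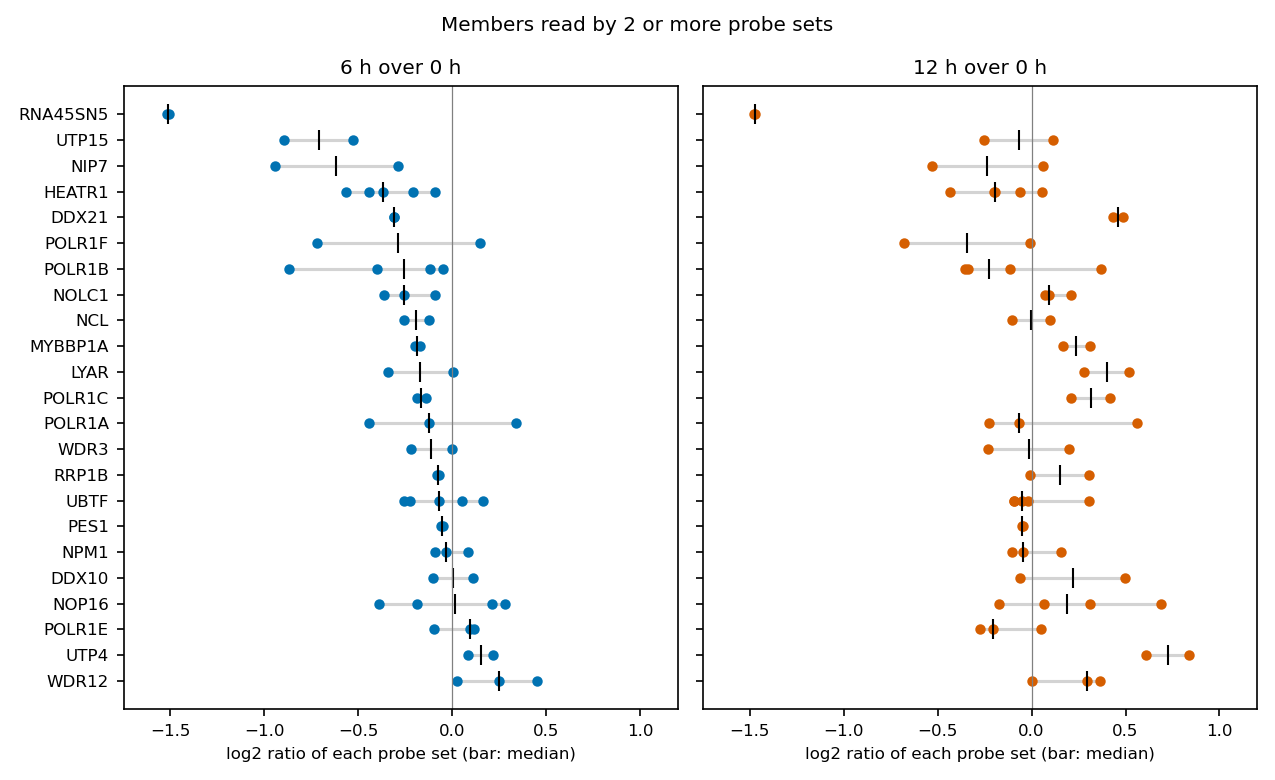
Log2 ratio of each probe set (points, horizontal axis) for the 23 genes with 2 or more probe sets (rows), at 6 h and 12 h over 0 h, with the gene's median as a bar. The 2 points of RNA45SN5 coincide at both times, while those of POLR1A and NOP16 lie on both sides of 0.

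The E-box, a palindrome and so the same on both strands, was found in the promoter windows of 13 of the 32 members with a window (40.6%), where a gene can have more than 1 window. It was found in 10.9% of the 15384 array genes with a window and in 7.26% of all 35116 windows. In the 13 genes its first base lay between positions -64 and 36 from the gene's start, with no position 0. At 12 h over 0 h the median log2 ratio was 0.24 for the 13 members with it, 11 of them above 0, and -0.04 for the 19 without it, 7 of them above 0. At 12 h over 6 h it was 0.42 with it, all 13 above 0, and 0.19 without it, 14 above 0. At 6 h over 0 h the medians were -0.11 and -0.11. At 2 h over 0 h they were 0.14, with all 13 above 0, and 0.02, with 11 of 19 above 0. At 6 h over 2 h they were -0.23, with 1 of 13 above 0, and -0.16, with 4 of 19 above 0. This step and that of 12 h over 6 h rest on the same 6 h array. All RNA polymerase I genes with a window were among the 19 without the E-box, so the split also follows role. UTP20, which holds an E-box, was the lowest member at 12 h apart from RNA45SN5. Over the array genes the 12 h over 0 h median was 0.03 with the E-box and 0.01 without it, with 54.6% and 51.6% above 0. The array genes above 0 were 49.6% and 45.2% at 12 h over 6 h, 60.7% and 53.8% at 2 h over 0 h, and 49.6% and 56.9% at 6 h over 2 h. Among the other small- and large-subunit factors the medians at 12 h over 0 h were 0.09 for 23 genes with it, 60.9% of them above 0, and 0.02 for 41 without it, 56.1% above 0. At 12 h over 6 h they were 0.21 and 0.08. These are descriptions without a test, and a match of letters shows no binding.

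**Figure D5:**
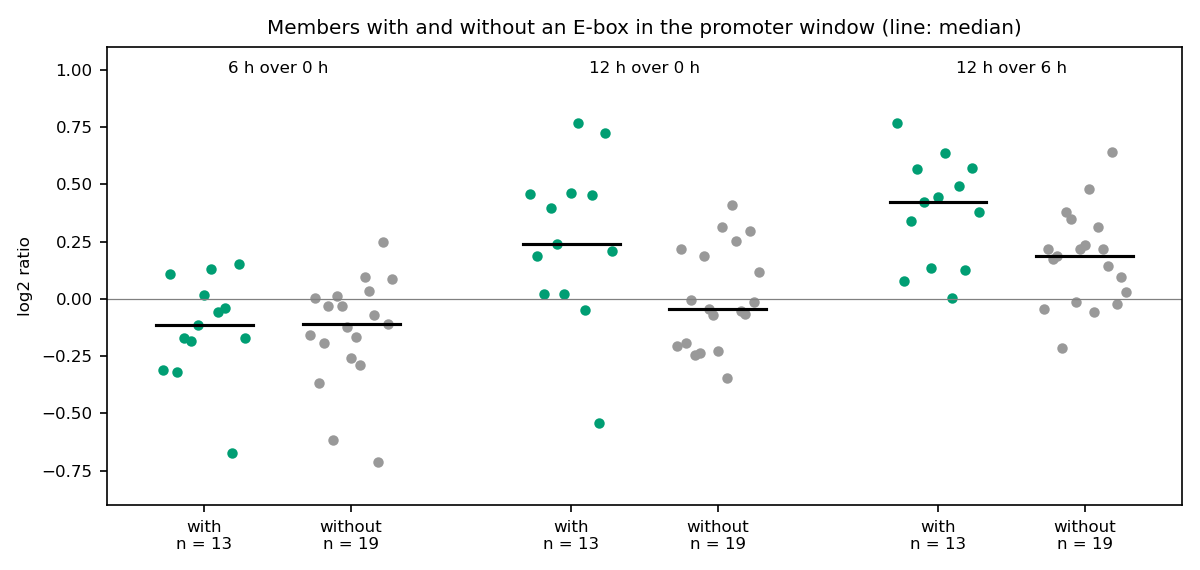
Log2 ratio (vertical axis) of the members with an E-box in a promoter window (13) and without one (19) in 3 comparisons of arrays, 1 point per gene, with the median as a line. The medians are equal at 6 h over 0 h and apart at 12 h over 0 h and 12 h over 6 h.

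Other motifs were searched on both strands in the same windows. CCGGAAG, the core bound by ETS factors, was in 13 of 32 members (40.6%), beside 16.6% of array genes and 10.3% of all windows. CGCGAGA was in 5 (15.6%), beside 5.95% and 3.49%, and the palindromic NRF1 core in 2 (6.25%), beside 2.04% and 1.24%. The TATA letters TATAAA were in 1 (3.12%), UTP20, beside 11.5% of array genes and 11.5% of windows. In the members' windows no match of 1 motif overlapped a match of a different one. Ratios were not split by these other motifs.

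The rest of the pathway, from lists of other genes, had 6 h medians nearer 0. Of 34 other small-subunit factors 19 were below 0 at 6 h (median -0.03), beside 39.7% of all genes. Lower at 6 h than at 2 h were 26 of them, beside 42.8%, so they too were often low on that array. Their highest at 12 h were NOB1, the nuclease that finishes 18S rRNA, at 0.74 and BYSL at 0.59, and their lowest EMG1 at -0.53 and LTV1 at -0.53. Of 38 other large-subunit factors 18 were below 0 at 6 h (median 0.02), beside the same 39.7%. At 12 h 24 were above 0 (median 0.07), beside 51.7% of all genes. RSL1D1, a nucleolar protein, was past 2-fold at 12 h at 1.54 (SD 0.77 over 3 probe sets), and MRTO4 was lowest at -0.55. The 14 other RNA polymerase I subunits and factors had medians of 0.04 at 6 h and -0.04 at 12 h, with TAF1A highest at 0.64 and 0.57. The 17 RNA polymerase III genes had medians of 0.08 and 0.05. At 12 h its repressor MAF1 was at 0.73, its subunit POLR3D at 0.72 and the lowest, GTF3C4, at -0.35. The 12 RNA exosome genes had medians of 0.05 and 0.10, with EXOSC5 at 0.56 and EXOSC2 at -0.28 at 12 h.

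The ribosomal proteins did not share the low 6 h values. Of 49 read, 42 were above 0 at 6 h (median 0.07), beside 59.6% of all genes, and 40 at 12 h (median 0.09), beside 51.7%. RPL27A was the only one past 1.5-fold against 0 h, at -0.62 at 12 h. Of 22 regulators of the pathway 17 were above 0 at 12 h (median 0.16), beside the same 51.7% of all genes. The highest were the nuclear receptor NR2C2 at 1.05 (SD 0.10 over 2 probe sets), MXI1, a MAX partner that opposes MYC, at 0.94 and EIF4EBP1, an mTOR target that restrains translation, at 0.69. The lowest were CCND1 at -0.43 and RBL1 at -0.42. MYC, on 1 probe set, was at -0.60 at 6 h over 2 h and 0.79 at 12 h over 6 h. Of the 22 regulators 15 were below 0 in the first of these steps, beside 42.8% of all genes. In the second 15 were above 0, beside 45.1%. MXI1 and EIF4EBP1 had the same signs as MYC, and both steps rest on the same 6 h array. MYC is named because both of its steps passed 1.5-fold, after its values were seen, and its part here was not tested.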

How the data were processed

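The authors deposited values for 54675 probe sets, and the submitters' processing notes name RMA, without a version, as their source. Tested on the file, each probe set's median over the 4 arrays was 0 within 5e-07, so the deposited values are centred. The centring step, the log base and the direction are not given in the sources used here. The deposited values were taken as log2, the scale RMA works on, and higher as more transcript.

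Symbols came from the platform annotation, checked by gene identifier against RefSeq (GRCh38.p14), and 41091 probe sets had 1 symbol. Ratios and medians were computed with pandas 2.3.3 in Python 3.11.15 and tested on simulated data. With 1 array per time there is no test, SD between samples or p-value, and the number of arrays limits precision. Thresholds were 1.5-fold and 2-fold. Members, lists (8, with 225 entries, of which 187 were read) and motifs were chosen with earlier results of these data known. All members could be named, and of each list the 3 highest and 3 lowest at 12 h and any past 2-fold. The comparisons of 6 h with 2 h and of 12 h with 6 h and with 2 h were added after seeing the data.

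Alternatives tried were centring on the median probe set or on the 18 spike-in probe sets, leaving out the _s_at and _x_at probe sets, whose probes may hit more than 1 transcript, using the widest-ranging probe set or the mean over probe sets, a baseline of the other 3 arrays' mean, and thresholds of 1.5-fold and 3-fold.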

Additional observations from a re-analysis of the deposited data

How the results depend on the processing

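No paired analysis was possible because each time has 1 array and no result comes from a test. Of 118 recomputed values, 91 stayed within the limits set (0.16 on the log2 scale, or 1.5 times for a count), 25 moved beyond them and 2 changed sign. The 0.16 limit is wider than the member medians against 0 h (0.06, -0.12 and 0.06), so for these it is a weak check. The count past 2-fold at 2 h, 0 in every setting, is among the 91. Some of the 91 could not move. The ribosomal RNA control probe sets include none ending in _s_at or _x_at, and the mean of the 2 RNA45SN5 probe sets equals their median. Leaving out the _s_at and _x_at probe sets cut the members read to 31, so its counts are of fewer genes. Centred on the spike-in RNAs, at 12 h over 0 h the member median was 0.41, with 36 members above 0 and 3 past 2-fold (NOP2 and UTP4 higher, RNA45SN5 lower), RNA45SN5 was at -1.12 and the ribosomal RNA probe sets at -0.39. Members above 0 were then 7 at 6 h over 0 h, beside 43.1% of all genes, and 3 at 6 h over 2 h. The 12 h over 6 h member median was 0.65. With this centring the median of all genes over 0 h was -0.03 at 6 h and 0.36 at 12 h, so part of that step was shared by all genes. The all-gene share for 6 h over 2 h and for the count past 2-fold was not computed with this centring. Against the mean of the other 3 arrays, RNA45SN5 was at 0.57, -0.88 and -0.83 at 2, 6 and 12 h and the ribosomal RNA probe sets at 0.23, -0.54 and -0.34, the 2 h values with the opposite sign. That mean holds the low 6 and 12 h arrays. No member was then past 2-fold at 6 or 12 h, and 6 were above 0 at 6 h. With the probe set of widest range, the ribosomal RNA values were -0.82, -1.84 and -1.91. With it, or without probe sets that can match several transcripts, RNA45SN5 at 2 h was at -0.18. Past 1.5-fold there were 4 members at 6 h and 3 at 12 h, and past 3-fold 0 at both. With the 2 h array in place of the 6 h array the 12 h median was 0.018. Precision is limited by 1 array per time. Signal over background cannot be read from centred values, so dim probe sets could not be left out.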
